A study of Homo sapiens and Mus musculus with 17 samples.

Results

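The PERK-ATF4-CHOP arm of the unfolded protein response was followed through 10 genes: ATF4, DDIT3 (which encodes CHOP), ATF3, ATF5, CEBPB, NUPR1, PPP1R15A, TRIB3, CHAC1 and SESN2. They were found by gene name, ignoring case, in the 2 expression tables of the series. In the human table, 10 of 62714 rows matched, 1 for each gene. In the mouse table, 11 of 55491 rows matched, because Ddit3 has a second row, ENSMUSG00000116429, which lies inside the first and is listed at 0 in every library. All 10 genes passed the filter on low values in both tables, so every gene was tested in every comparison.

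Expression was measured by RNA-seq in HEK293T cells, a line derived from human embryonic kidney, and in brown adipose tissue (BAT) of mice. HEK293T had 3 wild-type (WT), 3 HRD1 KO and 3 SEL1L KO libraries, in which the knockouts were made by CRISPR/Cas9 and the WT cells had received the plasmid without a guide RNA. BAT came from C57BL/6J mice labelled as 12 weeks old, with 3 WT mice, 2 mice carrying Hrd1 flox/flox and Ucp1-Cre, and 3 carrying Sel1l flox/flox and Ucp1-Cre. The Ucp1 promoter drives Cre in brown adipocytes, so that the other cells of the tissue keep the gene, and no source used here says whether a CRISPR line was 1 clone. SEL1L and HRD1 (gene SYVN1) form the complex that extracts misfolded proteins from the endoplasmic reticulum (ER) for degradation, and each knockout targets 1 of these 2 genes. The labels do not say that the HEK293T libraries came from separate cultures, so that p-values there measure the spread between these libraries, which may be technical.

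PERK is 1 of 3 sensors of misfolded protein in the ER. When active it phosphorylates the translation factor eIF2alpha, which slows most protein synthesis while the mRNA of ATF4 is translated better, and ATF4 then switches on stress genes together with CHOP. Other eIF2alpha kinases, which sense amino acid shortage, viral RNA or a lack of haem, feed into the same factor, and the control of ATF4 is largely translational, so that its mRNA is only part of its activity. Brown adipocytes have a dense network of mitochondria, whose stress is also known to reach ATF4 and its relative ATF5.

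Promoters were read for the human genes from RefSeq (assembly GRCh38.p14), as the 250 bases before each transcription start. Of the 10 genes, 9 had an entry, with 17 starts among them. The composite element bound by ATF4 with C/EBP partners, TGATGNAA on either strand, was found at 1 start of ATF3 and at the start of CHAC1, and in 3.14% of all 35116 promoters. The cyclic AMP response element TGACGTCA, its own reverse complement, was found in PPP1R15A and in 1.65% of promoters. The XBP1 and ATF6 motif TGACGTGG on either strand was found in 0 of the 9 genes and in 0.612% of promoters. The ER stress response element, CCAAT and CCACG with 9 bases between them on either strand, was found in 0 of the 9 genes and 0.074% of promoters. These 3 promoters with a match, and that of DDIT3, which had none and on which the HEK293T results turn, are shown from 5′ to 3′ with the matched motif in capitals. A match describes the letters only, and only exact matches were counted. DDIT3 holds CCAAT and CCACT with 9 bases between them, which differs from the ER stress response element searched by its last letter. The CHAC1 promoter lies at chr15:40953221-40953470 on the plus strand, with the motif on the minus strand starting 209 bases before the start. That of ATF3 lies at chr1:212565157-212565406 on the plus strand (motif 191 bases before the start), that of PPP1R15A at chr19:48872171-48872420 on the plus strand (58 bases before), and that of DDIT3 at chr12:57520515-57520764 on the minus strand.
CHAC1: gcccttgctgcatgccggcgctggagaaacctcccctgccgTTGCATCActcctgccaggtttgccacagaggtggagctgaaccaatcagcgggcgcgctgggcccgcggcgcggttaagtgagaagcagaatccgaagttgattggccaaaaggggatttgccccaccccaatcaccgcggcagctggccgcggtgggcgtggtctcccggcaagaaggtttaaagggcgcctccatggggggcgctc
ATF3: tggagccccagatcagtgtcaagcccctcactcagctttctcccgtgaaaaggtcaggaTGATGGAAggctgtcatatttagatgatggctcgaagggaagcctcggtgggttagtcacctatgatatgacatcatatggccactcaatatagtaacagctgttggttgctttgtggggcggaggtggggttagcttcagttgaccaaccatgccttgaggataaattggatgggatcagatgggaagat
PPP1R15A: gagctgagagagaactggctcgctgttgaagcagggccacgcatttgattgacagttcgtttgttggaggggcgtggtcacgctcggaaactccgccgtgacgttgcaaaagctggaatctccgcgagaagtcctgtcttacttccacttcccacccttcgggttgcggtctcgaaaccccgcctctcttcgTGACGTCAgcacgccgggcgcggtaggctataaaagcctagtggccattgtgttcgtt
DDIT3: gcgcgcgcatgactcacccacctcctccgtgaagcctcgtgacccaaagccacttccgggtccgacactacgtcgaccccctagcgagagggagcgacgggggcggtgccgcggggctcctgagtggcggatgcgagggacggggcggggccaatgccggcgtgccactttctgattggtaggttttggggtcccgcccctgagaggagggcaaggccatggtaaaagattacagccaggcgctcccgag

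Levels are given in FPKM as deposited, that is, fragments corrected for transcript length and library size. Differences are log2 fold changes of FPKM + 0.1 from limma with Benjamini-Hochberg adjustment over all genes tested, 15796 in HEK293T and 12473 in BAT. A gene was called at an adjusted p under 0.05 in HEK293T and under 0.01 in BAT. The deepest library of each table set to 1, the others lay at 0.522 or more in HEK293T and at 0.607 or more in BAT.

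The targeted genes did not follow every label. SEL1L lay between 1.82 and 3.36 FPKM in SEL1L KO cells and between 4.39 and 12.85 in WT. SYVN1 was 18.5 to 22.5 in HRD1 KO cells and 16.7 to 16.95 in WT, and Syvn1 was 14.05 and 13.8 in the Hrd1 KO tissues and 5.20 to 5.65 in WT. Sel1l was 25.2 in Sel1L KO replicate 1 of BAT, above the 9.10 to 12.9 of WT, and 8.17 and 8.38 in replicates 2 and 3, below it. In the HRD1 KO cells and both BAT knockouts, KO therefore stands for the libraries labelled KO. The brown adipocyte markers summed to 5927 to 11256 FPKM in BAT and to at most 8.33 in HEK293T. The HEK293T markers NEFL, NEFM, PAX2 and LHX1 summed to 42.65 to 164 FPKM in HEK293T and to at most 0.43 in BAT. Sel1L KO replicate 1 of BAT stood apart. It correlated with its 2 group mates at 0.874 and 0.888, had 141 genes over 8-fold above both, and its immediate early genes, which respond within minutes to handling, summed to 478 FPKM against 46.2 to 102 in the other 7 BAT libraries. Its ER chaperone and ERAD genes of the IRE1 and ATF6 arms were also highest, at a sum of 11603 FPKM against 2585 and 2298 in its group mates. What set this library apart was not tested. The BAT results of the 10 genes, and the list counts and medians that it moved, are therefore also given without it.

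In HEK293T cells no change of the 10 genes passed the test in either knockout. With HRD1 KO, 0 of 10 genes were called by limma, where 0.057% of all genes were called, and with SEL1L KO 0 of 10, where 0.0317% were. At an unadjusted p under 0.05 the count was also 0 of 10 in both, where 2% and 1.49% of all genes were. With the replicate number as a block, which these libraries share, the unadjusted counts were 1 (DDIT3) with HRD1 KO and 3 (ATF4, DDIT3 and TRIB3) with SEL1L KO, where 6.13% and 5.53% of all genes were, and the adjusted counts stayed at 0 of 10. The median log2 fold change of the 10 genes was -0.02 with HRD1 KO and 0.26 with SEL1L KO, beside -0.05 and -0.06 over all genes tested. Between the knockouts, 0 of 10 genes differed, as did 0% of all genes, with 1 gene, CEBPB, at an unadjusted p under 0.05, where 2.34% of all genes were (log2 difference HRD1 KO minus SEL1L KO -0.84 ± 0.30 SE, adjusted p = 1).

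ATF4 (ENSG00000128272, GRCh38 chromosome 22, 39519695 to 39522683), the factor on which the arm converges, was the most abundant of the 10 in HEK293T. Its FPKM in replicates 1, 2 and 3 was 769, 584 and 563 in WT, 850.3, 591 and 661 in HRD1 KO, and 881, 739 and 760.25 in SEL1L KO. The groups overlapped, and within each replicate number both knockouts lay above WT. The log2 fold change was 0.13 ± 0.19 (SE) with HRD1 KO and 0.32 ± 0.19 with SEL1L KO, each with an adjusted p of 1 in limma.

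DDIT3 (ENSG00000175197, chromosome 12, 57516588 to 57521737, minus strand) encodes CHOP, a C/EBP-family factor linked to cell death under lasting ER stress. Its FPKM was 34.8, 23.0 and 8.21 in WT, 52.1, 48.2 and 14.4 in HRD1 KO, and 73.0, 62.6 and 15.6 in SEL1L KO. Replicate 3 was the lowest library of each genotype, and WT replicates 1 and 2 lay above both knockouts of replicate 3, so the groups overlapped. The means were 22.0 ± 13.3 (SD, n = 3) in WT, 38.3 ± 20.7 (n = 3) in HRD1 KO and 50.4 ± 30.6 (n = 3) in SEL1L KO, with log2 fold changes of 0.82 ± 0.72 and 1.14 ± 0.72 (adjusted p = 1 for both in limma). Against the WT library of the same number the differences were 0.58, 1.07 and 0.81 with HRD1 KO and 1.06, 1.44 and 0.92 with SEL1L KO. In a fit with the replicate number as a block the standard error of both was 0.15, and the adjusted p was 0.172 with HRD1 KO and 0.0519 with SEL1L KO, past the threshold in neither. That fit called 0.158% and 0.076% of all genes. Libraries numbered 1 and 2 alone, a choice made after the values were seen, gave 0.82 ± 0.25 (adjusted p = 1) and 1.25 ± 0.25 (adjusted p = 0.576).

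Of the 10 genes, 3 (ATF4, DDIT3 and SESN2) were above WT in 3 of 3 same-numbered pairs with HRD1 KO, where 9.7% of all genes were. With SEL1L KO the count was 4 (ATF4, DDIT3, CEBPB and TRIB3), where 10.4% of all genes were. For 0 of 10 genes did every knockout library lie above every WT library, in either knockout, where 1.96% and 2.41% of all genes did.

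Among the other transcription regulators, ATF3 (ENSG00000162772), a repressor and activator induced by many stresses, lay between 23.7 and 76.6 FPKM among WT, 29.3 and 94.5 among HRD1 KO and 21.1 and 71.9 among SEL1L KO libraries. CEBPB (ENSG00000172216), a dimer partner of both ATF4 and CHOP, was 22.7 to 28.7 in WT, 17.2, 23.25 and 24.0 in HRD1 KO, and 53.8, 44.1 and 23.3 in SEL1L KO. Only SEL1L KO replicates 1 and 2 of CEBPB stood above all WT libraries, and the log2 fold change of 0.57 ± 0.30 had an adjusted p of 1 in limma. ATF5 (ENSG00000169136, chromosome 19, 49928702 to 49933935), a relative of ATF4 that is likewise controlled by eIF2alpha and linked to mitochondrial stress, was low at 3.71, 5.69 and 9.29 in WT, 7.84, 3.85 and 5.92 in HRD1 KO, and 5.98, 4.47 and 4.32 in SEL1L KO. Its groups overlapped fully, with log2 fold changes of -0.04 ± 0.38 and -0.25 ± 0.38. NUPR1 (ENSG00000176046), a small chromatin-associated stress protein, had the lowest WT mean of the 10, at 4.04, 4.61 and 0.80 FPKM in WT, 3.67, 4.97 and 0 in HRD1 KO, and 5.51, 10.97 and 0 in SEL1L KO.

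The feedback and effector genes overlapped between genotypes too. PPP1R15A (GADD34, ENSG00000087074) directs the phosphatase that removes phosphate from eIF2alpha, and its FPKM lay between 18.1 and 34.6 among WT, 14.9 and 37.9 among HRD1 KO and 13.9 and 31.7 among SEL1L KO libraries. TRIB3 (ENSG00000101255), a pseudokinase that restrains ATF4, CHOP and AKT, ranged over 10.5 to 18.25 among WT cells, 7.88 to 21.9 among HRD1 KO and 11.03 to 26.5 among SEL1L KO. CHAC1 (ENSG00000128965), which cleaves glutathione, spanned 7.96 to 19.5, 10.8 to 24.1 and 7.83 to 28.3 in the same order. SESN2 (ENSG00000130766), a leucine sensor that inhibits mTORC1, spanned 20.7 to 41.7, 21.7 to 51.2 and 19.3 to 47.9. The 95% intervals of the log2 fold changes of these 4 genes with HRD1 KO lay within -1.02 to 1.34, the span of change these libraries leave undecided.

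**Figure D1:**
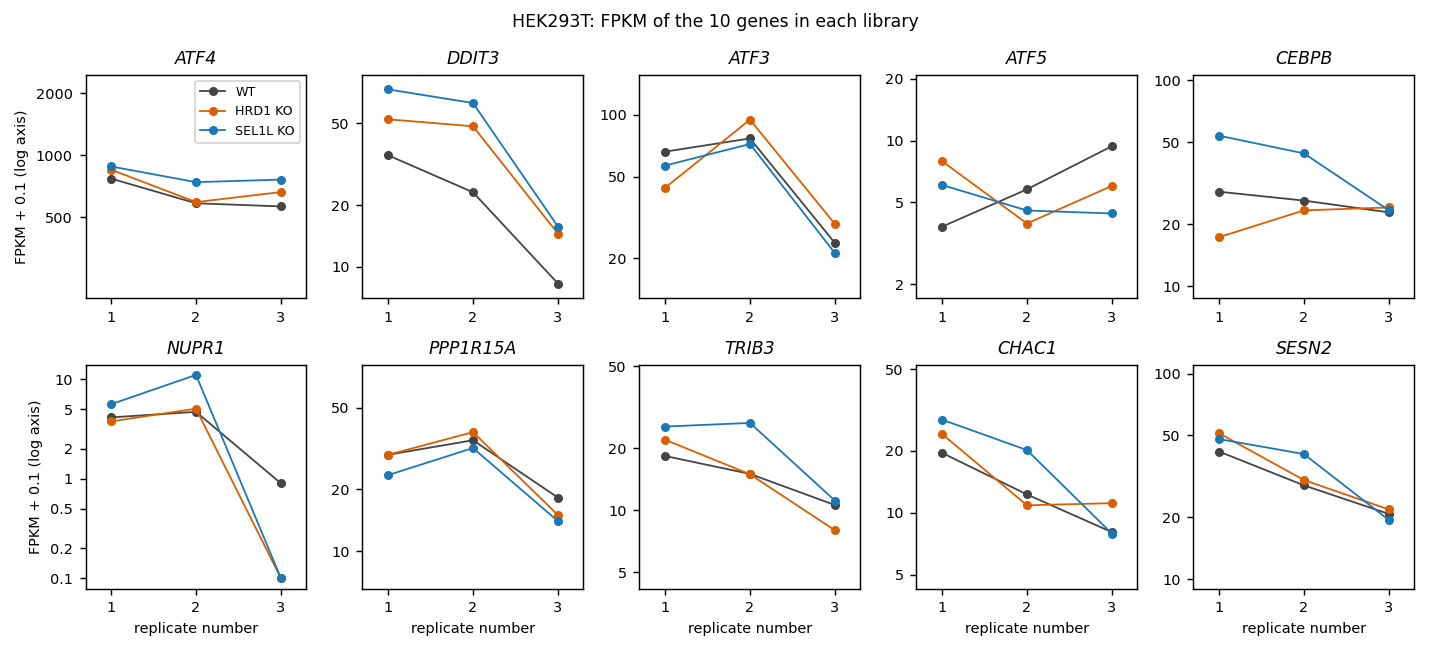
FPKM + 0.1 on a log axis (vertical) of each gene in the 9 HEK293T libraries, by replicate number (horizontal), with lines joining the libraries of 1 genotype as a guide for the eye. DDIT3 lies between 8.21 and 15.6 in the libraries numbered 3 and between 23.0 and 73.0 in those numbered 1 and 2, and NUPR1 is at 0 in both knockout libraries numbered 3.

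The HEK293T libraries numbered 3 had less of most of these genes. Replicate 3 was the lowest library in all 3 genotypes for 6 of the 10 genes (DDIT3, ATF3, NUPR1, PPP1R15A, TRIB3 and SESN2), where 17.6% of all genes were. With genotype in the model, 8 of 10 genes were higher in replicate 1 than in replicate 3 by limma, where 28.7% of all genes differed in either direction. The median log2 difference of the 10 genes was 1.15, and that of all genes -0.01. DDIT3 had the smallest adjusted p, with 2.045 ± 0.15 (SE, adjusted p = 0.000432). NUPR1 had the greatest difference, 4.42 ± 0.73 (adjusted p = 0.00423), whose size depends on the value added before the logarithm and was 2.14 with 1 in place of 0.1. The differences of CHAC1, SESN2, ATF3 and TRIB3 were 1.41, 1.18, 1.16 and 1.15, with adjusted p between 0.00223 and 0.00438. PPP1R15A differed by 0.80 (adjusted p = 0.00545) and ATF4 by 0.34 ± 0.10 (adjusted p = 0.0358). ATF5 and CEBPB were not called, at -0.15 (adjusted p = 0.776) and 0.35 (adjusted p = 0.345).

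Between replicate 2 and replicate 3, 6 of 10 genes were higher in replicate 2 (DDIT3, ATF3, NUPR1, PPP1R15A, TRIB3 and SESN2), where 10.9% of all genes differed. Between replicates 1 and 2, 0 of 10 were called by limma, where 5.1% of all genes were called. At an unadjusted p under 0.05 the count was 5 (ATF4, CHAC1 and SESN2 higher in replicate 1, ATF3 and PPP1R15A lower), where 26.9% of all genes were. Leaving out each HEK293T library in turn, also chosen after the values were seen, left 7 or 8 genes called between replicates 1 and 3 and 4 to 6 between replicates 2 and 3. No source used here says what the numbers stand for.

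In BAT only Atf5 and Nupr1 passed the test in both knockouts. Atf4, Ddit3 and Trib3 also lay above WT in every knockout library, with a wider spread. By limma, 2 of 10 genes were called with Hrd1 KO, where 0.369% of all genes were, and the same 2 with Sel1L KO, where 0.104% were. At an adjusted p under 0.05, Ddit3 joined them with Hrd1 KO, making 3 higher genes where 4.38% of all genes were higher, and with Sel1L KO the count stayed at 2 where 0.689% were higher. The median log2 fold change of the 10 genes was 1.67 with Hrd1 KO and 1.77 with Sel1L KO, beside 0.42 and 0.09 over all genes. Rescaling the libraries by median ratios moved the median of all genes with Hrd1 KO from 0.42 to -0.02, and relative to that scale the medians of the 10 genes were 1.22 and 1.67. As these are whole tissues, fewer cells of a type and less RNA per cell cannot be told apart.

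Atf5 (ENSMUSG00000038539, GRCm38 chromosome 7, 44812256 to 44816658, minus strand) measured 39.6, 30.4 and 37.2 FPKM in the WT libraries, 176 and 199.62 in Hrd1 KO, and 182, 165 and 113 in Sel1L KO. All 5 knockout libraries lay above all 3 WT libraries. The means were 35.7 ± 4.75 (SD, n = 3), 188 ± 16.96 (n = 2) and 153 ± 35.7 (n = 3), which gave log2 fold changes of 2.40 ± 0.22 (SE, adjusted p = 0.00452 in limma) and 2.08 ± 0.20 (adjusted p = 0.00822).

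Nupr1 (ENSMUSG00000030717, chromosome 7, 126623249 to 126630861, minus strand) measured 58.6, 48.6 and 45.3 FPKM in the WT libraries, 187 and 189 in Hrd1 KO, and 142, 153 and 136 in Sel1L KO. The 3 groups did not overlap on the values as deposited, with Hrd1 KO above Sel1L KO. Over all genes the median log2 difference, Hrd1 KO minus Sel1L KO, was 0.30, and -0.05 after median-ratio scaling. The log2 fold changes of Nupr1 against WT were 1.89 ± 0.15 (adjusted p = 0.00255 in limma) and 1.504 ± 0.14 (adjusted p = 0.00822). Sel1L KO replicate 1 was among its group mates for Nupr1 and the highest of them for Atf5. After median-ratio scaling neither Atf5 nor Nupr1 passed 0.01 in either knockout. Atf5 then had log2 fold changes of 1.94 (adjusted p = 0.0325) and 1.98 (adjusted p = 0.0239), and Nupr1 1.44 (adjusted p = 0.0249) and 1.41 (adjusted p = 0.0236).

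Ddit3 (ENSMUSG00000025408, chromosome 10, 127290774 to 127296288) measured 25.1, 37.35 and 32.5 FPKM in the WT libraries, 128 and 269 in Hrd1 KO, and 298, 98.3 and 72.7 in Sel1L KO. All 5 knockout libraries lay above WT, the lowest of them at 72.7 against 37.35 for the highest WT. The log2 fold changes of 2.57 ± 0.57 (adjusted p = 0.0456 in limma) and 2.04 ± 0.51 (adjusted p = 0.102) did not pass 0.01. Atf4 (ENSMUSG00000042406) was 41.7, 40.8 and 42.05 in WT, 85.0 and 152 in Hrd1 KO, and 362, 58.6 and 48.3 in Sel1L KO. Every knockout library was above the 3 WT libraries, with log2 fold changes of 1.45 ± 0.75 (adjusted p = 0.247) and 1.28 ± 0.67 (adjusted p = 0.374).

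Trib3 (ENSMUSG00000032715) was 2.95, 1.70 and 2.65 in WT, 15.55 and 44.03 in Hrd1 KO, and 78.9, 5.97 and 3.64 in Sel1L KO. Again all knockout libraries were above WT, and the spread within each knockout was wide. The log2 fold change of 3.41 ± 1.14 with Hrd1 KO (adjusted p = 0.108 in limma) was the highest of the 10 genes, and with Sel1L KO it was 2.30 ± 1.02 (adjusted p = 0.288). Ppp1r15a (ENSMUSG00000040435) was 3.81 to 4.73 in WT, 8.74 and 14.3 in Hrd1 KO, and 187, 11.75 and 4.54 in Sel1L KO, where replicate 3 fell within WT.

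In the remaining 4 genes the knockouts did not stand clear above WT. Atf3 (ENSMUSG00000026628) was 0.60 to 3.58 in WT, 0.87 and 1.91 in Hrd1 KO, and 122, 4.24 and 0.56 in Sel1L KO. Chac1 (ENSMUSG00000027313) was 0.34 to 3.10 in WT, 1.71 and 11.4 in Hrd1 KO, and 20.5, 1.15 and 0.45 in Sel1L KO. Sesn2 (ENSMUSG00000028893) was 3.28 to 5.66 in WT, 5.49 and 10.4 in Hrd1 KO, and 58.7, 3.28 and 1.65 in Sel1L KO. For these 3 genes only Sel1L KO replicate 1, and for Chac1 and Sesn2 also Hrd1 KO replicate 2, lay far above WT. Cebpb (ENSMUSG00000056501), which also drives adipocyte differentiation, was 448 to 497 in WT, 416 and 427 in Hrd1 KO, and 1113, 454 and 379.52 in Sel1L KO. Both Hrd1 KO libraries lay below all WT libraries, with a log2 fold change of -0.16 ± 0.39 (adjusted p = 0.80 in limma).

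Counted over the 10 genes, every Hrd1 KO library lay above every WT library in 6 (Atf4, Ddit3, Atf5, Nupr1, Ppp1r15a and Trib3), where 51.1% of all genes did. For Cebpb every Hrd1 KO library lay below, and the share of all genes that did so was not counted. After median-ratio scaling the same 6 genes lay above, where 21.1% of all genes did. With Sel1L KO the count was 5 (the same genes without Ppp1r15a), where 17.7% of all genes did, and the same 5 after scaling, where 12.8% did. Between the knockouts 0 of 10 genes differed by limma, where 0.0401% of all genes were called, and 1, Nupr1, was at an unadjusted p under 0.05, where 16.7% of all genes were (Hrd1 KO minus Sel1L KO 0.39 ± 0.15, adjusted p = 0.267), a difference of 0.04 after median-ratio scaling.

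**Figure D2:**
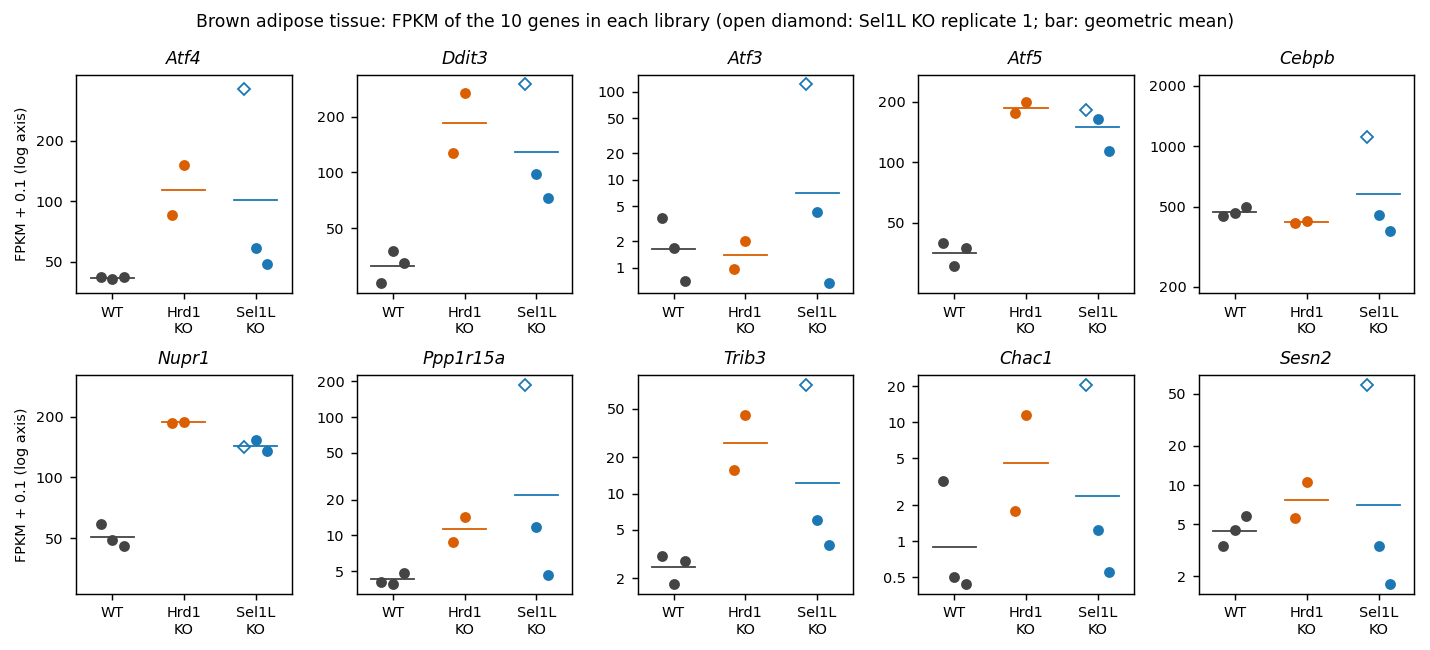
FPKM + 0.1 on a log axis (vertical) of each gene in the 8 BAT libraries by group (horizontal), with bars at the geometric mean of a group. Sel1L KO replicate 1, drawn as an open diamond, is far above its group mates for Atf3 (122 against 4.24 and 0.56) and among them for Nupr1 (142 against 153 and 136).

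Leaving out Sel1L KO replicate 1 changed the picture for both knockouts, since all groups share 1 estimate of the spread. With Hrd1 KO, 5 of 10 genes were then called, where 6.3% of all genes were: Nupr1 (adjusted p = 0.000536 in limma), Atf5 (0.000677), Ddit3 (0.00272), Trib3 (0.00351) and Atf4 (0.0062). The fold changes stayed as they were, while the standard error of Atf4 fell from 0.75 to 0.23 and that of Trib3 from 1.14 to 0.45. With Sel1L KO the 2 remaining libraries gave 2 called genes, where 0.496% of all genes were, Atf5 at 1.94 ± 0.19 (adjusted p = 0.0045) and Nupr1 at 1.51 ± 0.14 (adjusted p = 0.00339). Ddit3 was then at 1.43 ± 0.32 (adjusted p = 0.0506) and Atf4 at 0.36 ± 0.23 (adjusted p = 0.378). The median over the 10 genes with Sel1L KO fell from 1.77 to 0.58, and Cebpb, Chac1 and Sesn2 turned to -0.18, -0.10 and -0.88, none of them called. With median-ratio scaling as well, Hrd1 KO had 2 called genes, Atf5 (1.94, adjusted p = 0.00407) and Nupr1 (1.44, adjusted p = 0.00596), and Sel1L KO had 0, with Atf5 at an adjusted p of 0.0124 and Nupr1 at 0.0159. This combination was chosen after the values were seen. Of the other libraries, leaving out any 1 of the 3 WT or 2 Hrd1 KO libraries left 0 genes called in either knockout. Without Sel1L KO replicate 2 the counts were 1 with Hrd1 KO and 0 with Sel1L KO, and without Sel1L KO replicate 3 they were 2 and 1.

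Markers of other cells were summed in each BAT library. The 5 macrophage markers (Adgre1, Cd68, Lyz2, Csf1r and Ptprc) summed to 17.6 to 22.1 FPKM in WT and 39.2 to 57.0 in the knockouts, with 5 of 5 positive in fold change and 0 called in both. Of the 5, 1 (Lyz2) was called with Hrd1 KO once Sel1L KO replicate 1 was left out (1.01, adjusted p = 0.00692 in limma), where 6.3% of all genes were. The macrophage sums of WT and knockout libraries did not overlap, while those of the other 4 cell types did. On these unscaled values 51.1% of all genes lay above every WT library in every Hrd1 KO library. With Sel1L KO 17.7% did. The skeletal muscle markers summed to 1.17 to 3.08 in WT, to 308 and 10.8 in Hrd1 KO and to 55.5, 5.35 and 0.95 in Sel1L KO. Endothelial markers were at 55.9 to 78.2 in WT and 61.4 to 123 in the knockouts, and erythroid markers at 815 to 1337 and 1288 to 2610. The 2 white fat markers measured, Lep and Nnat, summed to 14.2 to 30.6 in WT and to 4.15 to 76.1 in the knockouts. Of the 7 brown adipocyte markers 0 were called, with medians of -0.55 with Hrd1 KO and -0.25 with Sel1L KO, and the greatest changes were those of Dio2, a thyroid hormone deiodinase, with Hrd1 KO (-2.82, adjusted p = 0.189) and of Ppargc1a, a coactivator of mitochondrial genes, with Sel1L KO (2.13, adjusted p = 0.422). With Sel1L KO replicate 1 left out, Dio2 fell with both (-2.82, adjusted p = 0.000635, and -1.81, adjusted p = 0.0087), and Ppargc1a was at 0.40. The part of these cells in the values of the 10 genes was not tested.

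The contrast between the cell types was tested in 1 joint fit over 9148 genes matched by name, as the knockout effect in BAT minus that in HEK293T, each taken within its own table. For HRD1 the difference was called for 1 of 10 genes, where 0.765% of all genes were called. This was ATF5, with a difference of 2.44 ± 0.46 (SE, 95% interval 1.46 to 3.42, adjusted p = 0.023 in limma). For SEL1L 0 of 10 were called, where 0.0765% were. At an unadjusted p under 0.05 there were 2 (ATF5 and PPP1R15A), where 7.54% of all matched genes were. ATF5 had nearly the same difference there, 2.33 ± 0.44 (1.41 to 3.25, adjusted p = 0.0635). With a replicate block for the HEK293T libraries, a choice made after the values were seen, its adjusted p was 0.0103 for HRD1 and 0.0316 for SEL1L. The call for HRD1 did not hold after median-ratio scaling (1.96 ± 0.49, adjusted p = 0.169) or without any 1 of WT replicate 2 of HEK293T, WT replicates 2 and 3 of BAT and Hrd1 KO replicates 1 and 2 of BAT (0 called each time). For SEL1L 1 gene, ATF5, was called without any 1 of WT replicate 1, HRD1 KO replicate 1 and HRD1 KO replicate 2 of HEK293T and Sel1L KO replicate 3 of BAT.

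For the other 9 genes the difference was not established. DDIT3 differed by 1.75 ± 0.99 for HRD1 (95% interval -0.35 to 3.85, adjusted p = 0.365 in limma) and by 0.90 ± 0.94 for SEL1L (-1.08 to 2.88, adjusted p = 0.896). NUPR1 differed by 2.96 ± 2.15 and 2.003 ± 2.03 (adjusted p = 0.473 and 0.89), and it was listed at 0 in 2 HEK293T libraries. TRIB3 differed by 3.46 ± 1.19 for HRD1 (0.94 to 5.99, adjusted p = 0.153) and 1.84 ± 1.13 for SEL1L (adjusted p = 0.769), and ATF4 by 1.32 ± 0.74 (adjusted p = 0.364) and 0.95 ± 0.70 (adjusted p = 0.824). Without Sel1L KO replicate 1 of BAT, 3 genes were called for HRD1, namely ATF5 (adjusted p = 0.00951), TRIB3 (0.0109) and ATF4 (0.025), and 0 for SEL1L, where ATF4 then differed by 0.03 ± 0.31 (adjusted p = 0.99). These 3 calls cannot be set against the 0.765% called in the full joint fit. In the BAT fit with Hrd1 KO, leaving out this library raised the share of all genes called from 0.369% to 6.3%. The estimate was above 0 for 9 of 10 genes in each knockout, with ATF3 for HRD1 and CEBPB for SEL1L below it. The medians of the differences were 1.60 and 1.44, beside 0.46 and 0.16 over all matched genes. Species, cell type, culture and the number of cell types in a sample all differ between the tables and cannot be told apart.

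**Figure D3:**
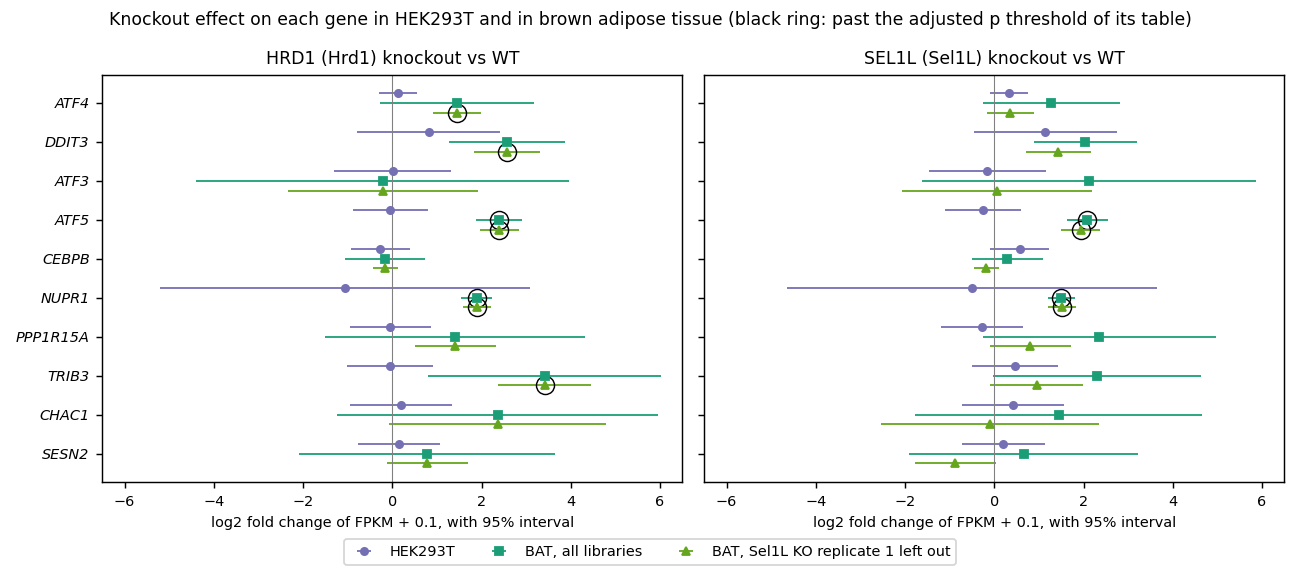
Log2 fold change of FPKM + 0.1 with its 95% interval (horizontal) for each gene (vertical), for the HRD1 knockout at left and the SEL1L knockout at right, in HEK293T, in BAT, and in BAT without Sel1L KO replicate 1; black rings mark genes past the threshold of their table. ATF5 lies at -0.04 and -0.25 in HEK293T and at 2.40 and 2.08 in BAT.

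The order of levels also differed between the WT samples, given here within each table since the tables were made separately. In HEK293T ATF4 led at 639 ± 114 FPKM (SD, n = 3) and stood apart from ATF3 (55.4 ± 27.998), below which each gene's WT range overlapped that of the next, through SESN2, PPP1R15A, CEBPB, DDIT3, TRIB3, CHAC1 and ATF5 to NUPR1 (3.15 ± 2.06). In BAT Cebpb led at 471 ± 24.6, followed by Nupr1 (50.8 ± 6.92), Atf4 (41.5 ± 0.628) and Atf5 (35.7 ± 4.75), of which Atf5 overlapped Ddit3 (31.6 ± 6.19). Sesn2, Ppp1r15a, Trib3, Atf3 and Chac1 followed, between 4.47 and 1.28 FPKM.

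The genes whose profile over the libraries was most like the mean standardised profile of the 10 were RPLP1 (Pearson r = 0.991), EIF3C (0.985), FAM20C (0.977), RGS7 (0.975) and NSMCE1 (0.974) over the 9 HEK293T libraries. In BAT they were Bag3 (0.994), Eef1a1 (0.990), 5430416N02Rik (0.990), Slc7a1 (0.987) and Rbm42 (0.985) over 8 libraries. These correlations describe the libraries, which share depth and composition. Within the 10, the gene closest to the mean profile was TRIB3 in HEK293T (0.961) and Atf4 in BAT (0.988), and ATF5 was the only one with a negative value in HEK293T (-0.126). The mean profile was lowest in the 3 libraries numbered 3 in HEK293T and highest in Sel1L KO replicate 1 in BAT.

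Genes downstream of ATF4 and CHOP were read as lists. In HEK293T, 0 of 13 amino acid synthesis and one-carbon genes, 0 of 9 amino acid transporters, 0 of 13 cytosolic tRNA synthetase genes and 0 of 14 signalling and redox genes were called in either knockout by limma. At an adjusted p of 1 each, the greatest values in their lists were SLC1A4, a neutral amino acid exchanger, at 1.14 ± 0.35 with HRD1 KO and 1.03 ± 0.35 with SEL1L KO, ALDH1L2, a mitochondrial folate enzyme, at 0.56 and 0.78, HMOX1, a haem-degrading enzyme, at -0.52 and -1.04, and, of the synthetases, LARS1 at -0.42 with HRD1 KO and TARS1 at 0.39 with SEL1L KO. The medians of the synthesis genes were 0.23 and 0.17, of the transporters 0.15 and 0.29, of the tRNA synthetases 0.14 and 0.16, and of the signalling genes -0.16 and -0.03. Among 20 ER chaperone and ERAD genes of the IRE1 and ATF6 arms, 6 rose with HRD1 KO and 3 with SEL1L KO, beside the 0.057% and 0.0317% of all genes called, with medians of 1.23 and 1.035. They included PDIA4, a disulfide isomerase, at 2.59 (adjusted p = 0.000348) and 2.02 (adjusted p = 0.00377), DERL3, a derlin, at 1.86 (adjusted p = 0.0252) and 2.16 (adjusted p = 0.0139), and MANF, a secreted ER stress protein, at 1.54 (adjusted p = 0.0292) and 1.68 (adjusted p = 0.0224). With the replicate block the counts were 10 and 9, where 0.158% and 0.076% of all genes were called. With the libraries numbered 1 and 2 alone the counts were 1 and 0. The 20 genes include the targeted genes SEL1L and SYVN1, neither of them called with all libraries.

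In BAT 1 of 12 amino acid synthesis genes was called in each knockout, where 0.369% and 0.104% of all genes were. It was Mthfd2, the mitochondrial one-carbon dehydrogenase, whose FPKM was 0.78, 1.21 and 0.78 in WT, 18.0 and 12.2 in Hrd1 KO, and 38.65, 16.9 and 12.1 in Sel1L KO, with log2 fold changes of 3.89 ± 0.47 (adjusted p = 0.00841 in limma) and 4.32 ± 0.42 (adjusted p = 0.00822). The medians of these 12 genes were 1.64 and 1.84. Over all genes, on these unscaled values, the medians were 0.42 and 0.09. With Hrd1 KO the tRNA synthetase genes Mars1 (0.05) and Gars (0.40) lay below that median. None of 7 transporters (medians 1.03 and 0.33), 13 tRNA synthetase genes (0.91 and 0.82, all 13 above 0 in both) or 11 signalling and redox genes (0.64 and 0.06) was called. The greatest values in their lists were Slc7a5, a leucine transporter, at 3.68 (adjusted p = 0.107) and 3.19 (adjusted p = 0.189), Cars at 1.64 (adjusted p = 0.0928) with Hrd1 KO, Wars at 1.51 (adjusted p = 0.114) with Sel1L KO, Ero1l, an ER oxidase, at 1.79 (adjusted p = 0.23) with Hrd1 KO, and Hmox1 at 2.93 (adjusted p = 0.285) with Sel1L KO, where it was 389 FPKM in replicate 1 and 17.4 and 5.22 in its group mates. Of the signalling genes Bbc3, named after its values were seen, was at -1.89 with Sel1L KO (adjusted p = 0.0342 in limma). Its FPKM there was 1.54, 2.81 and 2.86, against 7.13 to 10.2 in WT, and with Hrd1 KO it was at -0.03. Against the same shares, 4 of the 20 IRE1 and ATF6 genes rose with Hrd1 KO (Derl3 by 6.31, Sdf2l1 by 5.76, Pdia6 by 2.40 and Xbp1 by 2.10) and 3 with Sel1L KO (Derl3 by 5.94, Sdf2l1 by 5.72 and Pdia6 by 2.37), with medians of 2.35 and 2.29.

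Without Sel1L KO replicate 1, the counts with Hrd1 KO were 3 of 12 synthesis genes, 1 of 7 transporters, 5 of 13 tRNA synthetases, 3 of 11 signalling genes and 16 of 20 IRE1 and ATF6 genes, where 6.3% of all genes were called. With Sel1L KO they were 1, 0, 0, 0 and 8, where 0.496% were. The 16 genes included the targeted Sel1l and Syvn1, and the 8 included neither. The medians with Sel1L KO then went from 1.84 to 1.31 for synthesis, 0.33 to 0.24 for transport, 0.82 to 0.36 for the synthetases, 0.06 to 0.0021 for signalling and 2.29 to 1.47 for the IRE1 and ATF6 genes. After median-ratio scaling of all 8 libraries, 0 genes of these 5 lists were called in BAT.

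**Figure D4:**
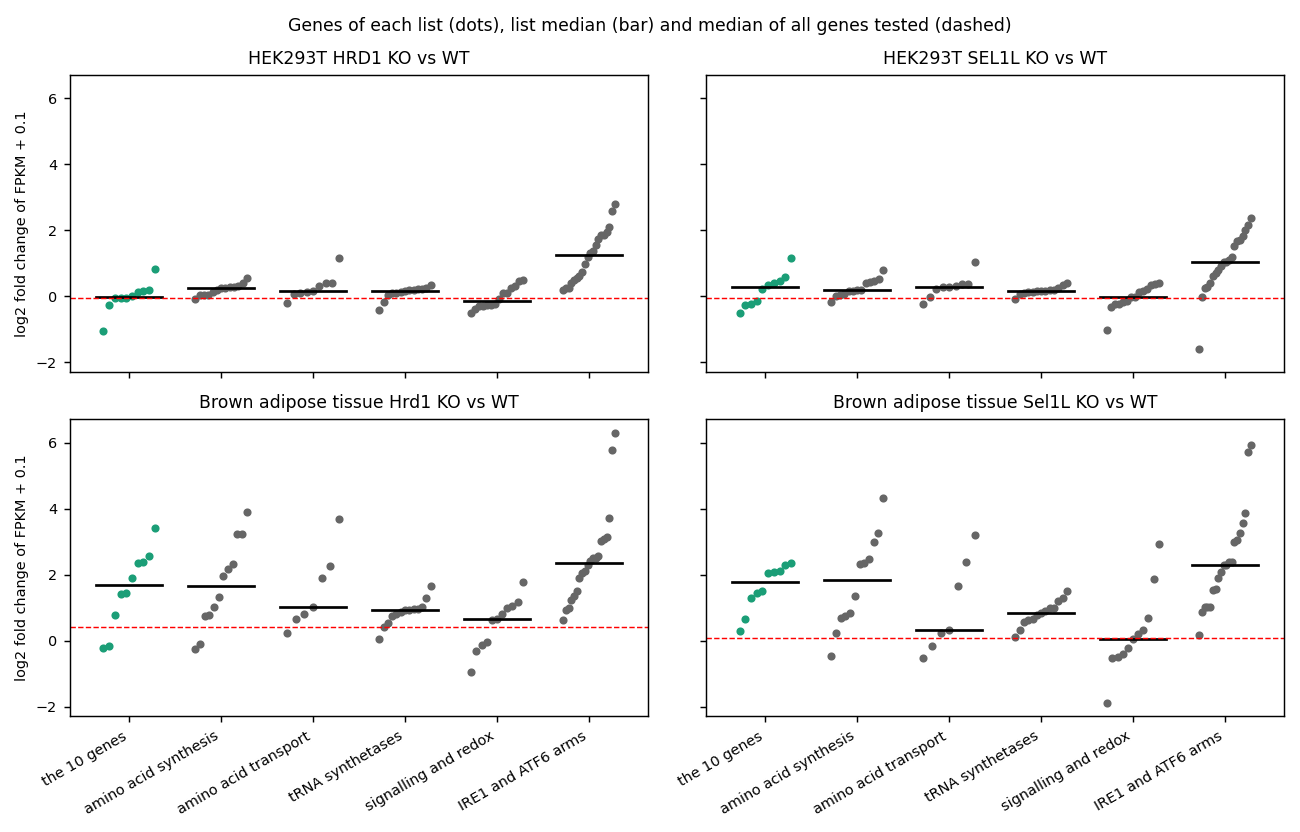
Log2 fold change of FPKM + 0.1 (vertical) of every gene tested in each list (dots), the list median (black bar) and the median of all genes (red dashed line), for both knockouts in HEK293T (top) and BAT (bottom). The bars of the 10 genes sit at -0.02 and 0.26 in HEK293T and at 1.67 and 1.77 in BAT, while the bars of the IRE1 and ATF6 genes are above the line in all 4 panels.

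Fgf21 and Gdf15, hormones released under ATF4-driven stress, were listed at 0 in all 3 WT tissues. Fgf21 was 2.51 and 25.1 in Hrd1 KO and 99.1, 4.01 and 1.85 in Sel1L KO, and Gdf15 was 2.37 and 7.18 and then 14.9, 1.06 and 0.40. Neither passed 0.01 (adjusted p = 0.0582 and 0.0526 with Hrd1 KO, 0.0741 and 0.114 with Sel1L KO in limma), and both did with Hrd1 KO once Sel1L KO replicate 1 was left out (0.00436 and 0.00378). In HEK293T GDF15 was 5.52, 8.22 and 0.19 in WT, 1.68, 5.07 and 0 in HRD1 KO, and 0.85, 2.32 and 0 in SEL1L KO.

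Of 8 genes for eIF2alpha (EIF2S1), its kinases and regulators of its phosphorylation (PPP1R15B, IMPACT and DNAJC3), 0 were called in any knockout with all libraries. In BAT Eif2ak3, which encodes PERK, was 4.25 to 5.46 FPKM in WT, 12.1 and 13.7 in Hrd1 KO, and 14.0, 6.23 and 6.14 in Sel1L KO, with log2 fold changes of 1.46 ± 0.36 (adjusted p = 0.0588 in limma) and 0.80 ± 0.32 (adjusted p = 0.253). Dnajc3, which encodes the kinase inhibitor p58IPK, was at 1.65 (adjusted p = 0.11) and 1.63 (adjusted p = 0.153) in BAT and at 1.33 (adjusted p = 0.682) and 1.26 (adjusted p = 1) in HEK293T. Without Sel1L KO replicate 1 both Eif2ak3 (adjusted p = 0.00251) and Dnajc3 (0.000635) were called with Hrd1 KO and 0 of 8 with Sel1L KO, where 6.3% and 0.496% of all genes were. With the replicate block DNAJC3 was called with HRD1 KO in HEK293T (adjusted p = 0.0459), where 0.158% of all genes were. Of 8 mitochondrial proteases and chaperones 0 were called in any knockout, with medians of -0.04 and 0.00 in HEK293T and 0.10 and 0.03 in BAT. Of the other factors of the C/EBP, AP-1, ATF and MAF families, 0 of 18 in HEK293T and 0 of 17 in BAT were called with all libraries, with the greatest value in each BAT knockout at Maff with Hrd1 KO (2.38, adjusted p = 0.357) and Fos with Sel1L KO (3.08, adjusted p = 0.252). Without Sel1L KO replicate 1, 3 of the 17 were called with Hrd1 KO (Fosl2 at 1.49, Jdp2 at 1.16 and Atf6 at 1.02), where 6.3% of all genes were. With Sel1L KO 0 of the 17 were, where 0.496% of all genes were, and their median went from 0.70 to 0.22. Of the immediate early genes 0 of 7 in HEK293T and 0 of 6 in BAT were called, with medians of 1.15 and 1.55 in BAT, the latter 0.68 without Sel1L KO replicate 1.

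Between HEK293T replicates 1 and 3, 13.7% of all genes were higher in replicate 1 and 14.9% lower. Of 13 synthesis genes 5 were higher in replicate 1, among them ASNS (1.32, adjusted p = 0.00236 in limma) and PHGDH (0.66, adjusted p = 0.00449), and of 14 signalling genes 6 were, among them DDIT4 (1.97, adjusted p = 0.00141) and STC2 (0.68, adjusted p = 0.0168). The median of the synthesis genes was 0.04 and that of the signalling genes 0.41. Of 9 transporters 1 was higher and 1 lower, and of 13 tRNA synthetases 1 was higher and 2 lower. GDF15 was higher by 3.89 (adjusted p = 0.00134). Of 20 IRE1 and ATF6 genes 0 were higher and 3 lower, with HSPA5, the main ER chaperone, at 0.20 (adjusted p = 0.171). Of the 8 genes for eIF2alpha, its kinases and regulators of its phosphorylation, 4 were lower in replicate 1. These list genes were chosen for mention after their values were seen.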

How the data were processed

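Polyadenylated RNA was sequenced from 9 HEK293T and 8 BAT libraries. Per the submitters' processing notes, reads were checked with FastQC 0.11.8, aligned with STAR 2.7.8a and quantified with RSEM 1.3.3 on GRCh38 and GRCm38. The values used are FPKM as deposited by the authors, 1 table per species, and no counts were used here, so absolute depth is unknown and only relative depth could be read from the low values. The authors tested estimated counts with DESeq2, which cannot be run on FPKM.

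Values were taken as log2(FPKM + 0.1), which understates the change of low genes. Genes reaching 1 FPKM in 3 HEK293T or 2 BAT libraries were fitted with limma 3.58.1 in R 4.3.3 (1 mean per group, all groups sharing the spread, trended variance) and adjusted by Benjamini-Hochberg over all genes tested. The fit of HRD1 KO against WT without a block was tested in each table on simulated data with independent noise in each library. The replicate, block and joint fits were not tested in this way. Every group came from the labels. Tests were made only within a table, except the joint fit, in which each effect was first taken within its table. In HEK293T same-numbered libraries of different genotypes deviated together (correlations of 0.216 to 0.485 in 9 pairs, -0.396 to 0.027 in the 18 others), so the numbers pair them, and in BAT they did not (-0.0602 to 0.0774 in 7 pairs).

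The genes named were the 10 members, the 2 targeted genes, up to 4 called genes with the greatest change per list (where none was called, up to 2 by size) and the 5 genes per table most like the mean profile; other names are said to be chosen later. The members and lists were chosen with earlier results of these data known. Alternatives were a replicate block, another pseudocount, no filter, median-ratio and quantile scaling, no trend, another threshold in BAT, separate fits and each library left out. Python 3.11.15, pandas 2.3.3 and matplotlib 3.10.9 made the tables and figures.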

Additional observations from a re-analysis of the deposited data

Results flagged for a closer look

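The effect of HRD1 KO on ATF5 passed the test of a difference between the cell types in the fit over all libraries. It was 2.44 higher in BAT than in HEK293T on the log2 scale, by the interaction term of the joint limma fit (adjusted p = 0.023). Both Hrd1 KO tissues were above all 3 WT tissues, as they were for 51.1% of all genes tested in BAT (21.1% after median-ratio scaling). The HEK293T groups overlapped, and there every HRD1 KO library lay above every WT library for 1.96% of all genes. The call was lost under median-ratio scaling (1.96, adjusted p = 0.169), under quantile scaling, and without any 1 of 5 libraries (WT replicate 2 of HEK293T, WT replicates 2 and 3 and Hrd1 KO replicates 1 and 2 of BAT).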

How the results depend on the processing

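With the replicate block no gene of the 10 was called in HEK293T, as without it, and in BAT, where the numbers do not pair the mice, the block left 0 called in both knockouts in place of 2. The count with Hrd1 KO was also 0 under median-ratio scaling, and that with Sel1L KO was 0 with no filter, under median-ratio scaling, with no trend, and without Sel1L KO replicate 1 under median-ratio scaling. Leaving out each library gave 0 to 5 with Hrd1 KO and 0 to 2 with Sel1L KO. The count for HRD1 between cell types went from 1 to 0 under median-ratio and quantile scaling (0 to 3 over libraries left out). That for SEL1L went from 0 to 1 with a pseudocount of 1 (0 to 1 over libraries left out). It also went from 0 to 1 with the HEK293T replicate block, which was chosen after the values were seen. Between HEK293T replicates 1 and 2 it was 1 in place of 0 under median-ratio scaling. The cause was not tested. Directions turned, none of them called, in HEK293T with HRD1 KO for ATF5 under quantile scaling (0.076), and with libraries 1 and 2 alone for ATF3 (-0.14), ATF5 (0.25), PPP1R15A (0.065) and TRIB3 (0.13). With SEL1L KO they turned there for ATF5 (0.17) and NUPR1 (0.84), and for NUPR1 with a pseudocount of 1 (0.20). In BAT with Sel1L KO, leaving out replicate 1 under median-ratio scaling turned ATF3 (-0.11), CEBPB (-0.36), CHAC1 (-0.26) and SESN2 (-1.05). CEBPB between cell types for HRD1 turned under median-ratio (-0.37) and quantile scaling (-0.028). Over libraries left out, values crossed 0 in HEK293T with HRD1 KO for ATF4 (-0.016 to 0.27), ATF3 (-0.52 to 0.39), ATF5 (-0.36 to 0.29), NUPR1 (-2.08 to 0.75), PPP1R15A (-0.34 to 0.34), TRIB3 (-0.39 to 0.34), CHAC1 (-0.18 to 0.53) and SESN2 (-0.18 to 0.44). With SEL1L KO they did for ATF3 (-0.69 to 0.37), ATF5 (-0.57 to 0.082), NUPR1 (-1.80 to 1.60), PPP1R15A (-0.55 to 0.043) and SESN2 (-0.056 to 0.60). In BAT they did for ATF3 with Hrd1 KO (-0.82 to 0.38) and for CEBPB (-0.18 to 0.59), CHAC1 (-0.10 to 2.51) and SESN2 (-0.88 to 1.66) with Sel1L KO. Between cell types they did for ATF3 (-0.83 to 0.37) and CEBPB (-0.042 to 0.20) for HRD1, and for CEBPB (-0.75 to 0.027), NUPR1 (-0.097 to 3.299), CHAC1 (-0.51 to 2.10) and SESN2 (-1.08 to 1.46) for SEL1L. Between HEK293T replicates 1 and 3 they did for ATF5 (-0.47 to 0.36) and CEBPB (-0.001428 to 0.67). With 2 or 3 libraries a group and no counts, low genes such as NUPR1 in HEK293T and Chac1 in BAT are the least certain.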
